A study of Mus musculus with 8 samples.

Results

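Chemokines are small secreted proteins that guide the movement of cells, and 10 of their genes were followed here in calvarial osteoblastic cells, the bone-forming cells and precursors of the skull. The 10 genes, Cxcl12, Cxcl10, Cxcl1, Cxcl5, Ccl2, Ccl7, Ccl8, Ccl5, Ccl9 and Cx3cl1, were chosen by symbol from the 24421 genes of the files, as homeostatic, interferon-inducible and inflammatory ligands that stromal and osteoblastic cells can make. The cells came from newborn C57BL/6 mice aged 0-3 days, either WT or Def6-/-, in which the gene for the exchange factor Def6 is disrupted in the whole animal and not in osteoblasts alone. They were released from calvarial bone by enzymes, expanded, and taken before induction (day 0) or on day 12 of osteogenic medium with ascorbic acid and β-glycerophosphate, in both genotypes. There were 4 groups (WT day 0, Def6-/- day 0, WT day 12 and Def6-/- day 12) with 2 libraries in each, 8 libraries in all. The RNA is that of whole cultures, which can hold other cells than osteoblasts.

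A chemokine is classed by its first cysteines, which lie side by side (CC), with 1 residue between them (CXC) or with 3 (CX3C), and it acts through G-protein-coupled receptors on the cell that it attracts. CXCL12 holds blood-forming stem cells in the marrow and is made by stromal and osteolineage cells, CXCL10 is a classical product of interferon signalling, CXCL1 and CXCL5 draw neutrophils, and CCL2 and its relatives draw monocytes, the cells from which osteoclasts arise. CX3CL1, or fractalkine, is made as a membrane protein and can be shed. Atypical receptors bind chemokines and remove them without the usual signal.

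The stretch that gives each class its name is shown for 1 member of each kind, as 30 coding bases from GENCODE M21 (GRCm38, the build of mm10), 5′ to 3′, with the codons of the first cysteines in capitals. The genes lie on chromosomes 6 (Cxcl12, chr6:117168535-117181367, plus strand), 5 (Cxcl10, chr5:92346638-92348889, minus strand, and Cxcl5, chr5:90759360-90761624, plus strand), 11 (Ccl2, chr11:82035571-82037453, plus strand) and 8 (Cx3cl1, chr8:94772009-94782427, plus strand).
Cxcl12: agctaccgaTGCcccTGCcggttcttcgag
Cxcl10: acggtccgcTGCaacTGCatccatatcgat
Cxcl5: gagctgcgtTGTgttTGCttaaccgtaact
Ccl2: ccactcaccTGCTGCtactcattcaccagc
Cx3cl1: atgacgaaaTGCgaaatcatgTGCgacaag
Cxcl1 and Cxcl5 were the members that carry the residues glutamate, leucine and arginine just before the first cysteine, the ELR motif of neutrophil-attracting ligands. Ccl2, Ccl7, Ccl8, Ccl5 and Ccl9 lie in the CC cluster of chromosome 11, and Cxcl10, Cxcl1 and Cxcl5 on chromosome 5. Cxcl10 overlaps Art3 on the other strand, which had 0 to 3 reads per library. Ccl2 overlaps Gm17268 on the other strand, whose reads were not examined. The strand setting of the counting is not given in the sources used here.

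The 250 bases before the RefSeq start (GRCm38.p6) are shown for 2 promoters, that of Cxcl10 because interferon and NF-κB control it in textbook accounts, and that of Cxcl12 because this gene changed most. Capitals mark matches on either strand to GAAANNGAA, the core of the interferon stimulated response element (ISRE), or to the NF-κB consensus.
Cxcl10 (chr5:92348890-92349139, minus strand): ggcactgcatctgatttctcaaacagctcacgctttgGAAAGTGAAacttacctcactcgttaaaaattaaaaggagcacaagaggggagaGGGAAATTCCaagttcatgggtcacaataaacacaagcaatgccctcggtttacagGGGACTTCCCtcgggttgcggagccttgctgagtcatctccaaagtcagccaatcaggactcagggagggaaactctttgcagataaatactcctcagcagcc
Cxcl12 (chr6:117168285-117168534, plus strand): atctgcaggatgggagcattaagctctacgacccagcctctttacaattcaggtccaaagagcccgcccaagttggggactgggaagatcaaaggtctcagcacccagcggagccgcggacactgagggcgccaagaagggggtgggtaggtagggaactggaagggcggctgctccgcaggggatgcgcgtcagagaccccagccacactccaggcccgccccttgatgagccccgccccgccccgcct
In Cxcl10 the ISRE core starts at base -213 and the NF-κB matches at -159 and -103, counting -1 as the base before the start, and the motifs do not overlap. The ISRE core occurs in 7.13% and the NF-κB consensus in 3.90% of 32851 RefSeq promoter windows of this length. Of the 6 members with a promoter in the table, Cxcl10 held both motifs, Cxcl1 and Ccl9 the NF-κB consensus, and Cxcl12, Ccl8 and Cx3cl1 neither, which says only that these letters are not in these windows.

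Between 2414856 and 3482837 reads fell on genes per library, 28.8% to 35.3% of all reads, so that a gene with 1 read stands at about 0.3 to 0.4 normalised CPM. Values below are normalised CPM: the reads on a gene as a share of the reads on all genes, on the usual CPM scale, after a factor for library composition. Differences and fold changes are of log2(normalised CPM + 1), so that those of genes with few reads come out smaller than they were. Def6 had 112 to 186 reads in the WT libraries and 0 to 2 in the Def6-/- libraries, so that the 8 libraries matched their genotype labels. These reads do not check the labels of day. WT day 0 replicate 1 stood apart, with the lowest share of reads on genes (28.8%) and 34.9% of reads that aligned to more than 1 place, against 21.4% to 26.6% in the others. The spread between replicates exceeded that of read sampling in all groups (chi-square per gene 4.28 to 31.9, the highest in WT day 0), and whether they came from separate animals is not stated in the labels. The osteoblast markers were present at both days, with summed levels of 28986 to 43566 at day 0 and 81681 to 115970 at day 12. In bulk libraries, fewer cells of a type and less RNA per cell cannot be told apart.

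The comparison of day 12 with day 0 asks which chemokine genes change as the cells mature. In WT cells Cxcl12, Cx3cl1, Ccl9 and Cxcl10 were higher at day 12 at an adjusted p under 0.05 (limma, Benjamini-Hochberg over 12348 genes), and in Def6-/- cells Cxcl12, Cx3cl1 and Ccl9 were. No member was called lower at day 12 in either genotype. Ccl2, Ccl7, Cxcl5 and Ccl5 did not pass in either genotype. Cxcl1 and Ccl8 had too few reads to be tested. Among all tested genes, 12.7% were called higher and 5.63% lower at day 12 in WT cells, and 12% higher and 4.79% lower in Def6-/- cells. Cxcl10 and Ccl5 entered the test only through their level in WT day 12, the group in which they were highest, so that the number of members called is not evidence about chemokines as a class. The median log2 difference of the 8 tested members was 0.90 in WT and 1.08 in Def6-/- cells, beside -0.001 and 0.01 over all tested genes.

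**Figure D1:**
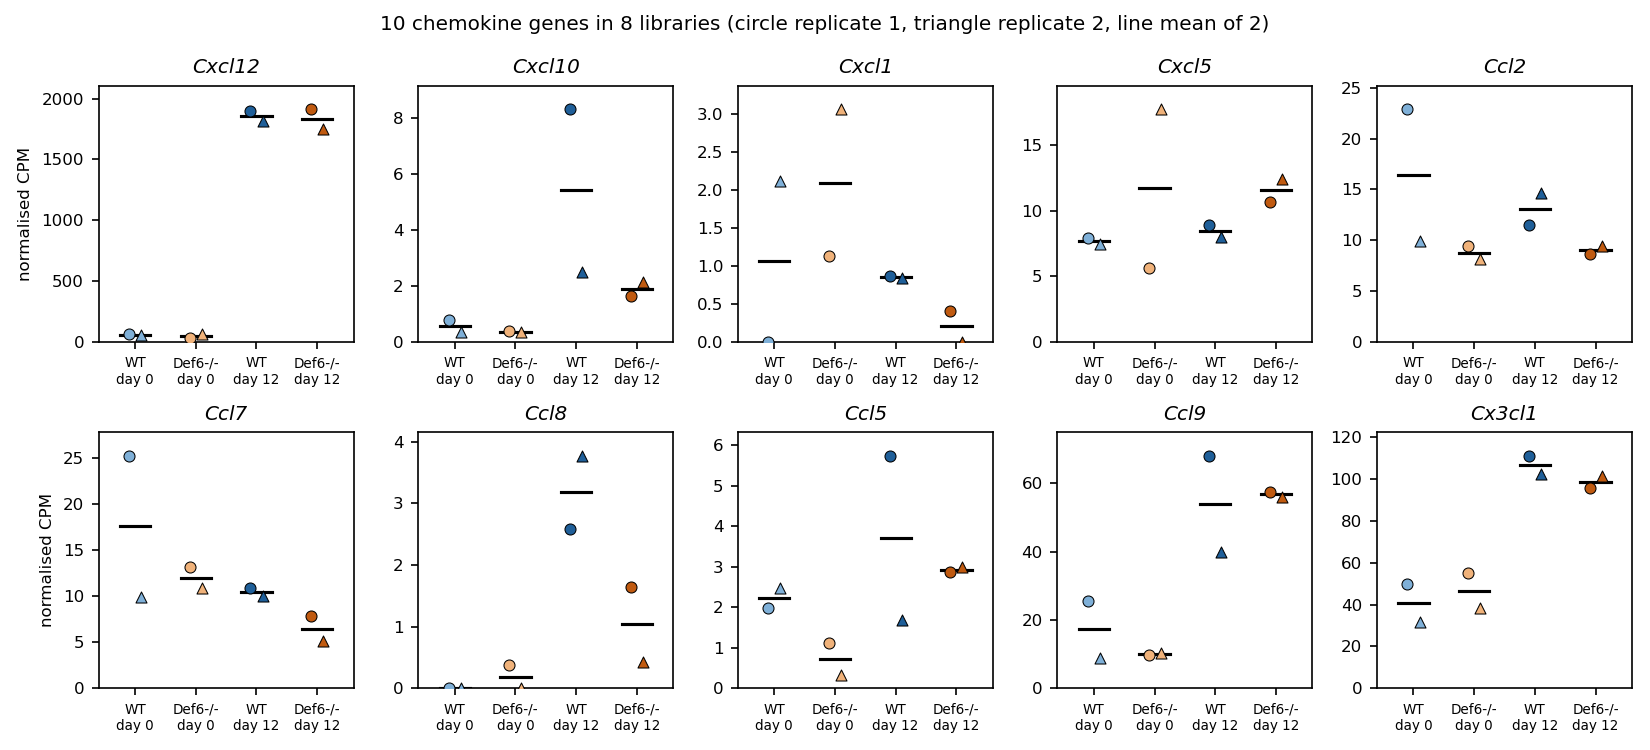
Normalised CPM (vertical axes, linear from 0, 1 scale per gene) of the 10 chemokine genes in 8 libraries by genotype and day, with circles for replicate 1, triangles for replicate 2 and a line at the mean of 2. Cxcl12 lies between 33.1 and 63.5 at day 0 and between 1753 and 1912 at day 12, and for Ccl2, Ccl7 and Ccl9 at day 0 WT replicate 1 lies well above the other 3 libraries.

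Cxcl12, the homeostatic ligand, showed the largest change of the members. It stood at 63.5 and 56.5 normalised CPM in the WT libraries at day 0 and at 33.1 and 60.3 in the Def6-/- libraries, from 88 to 177 reads per library. At day 12 it stood at 1902 and 1812 in WT and at 1912 and 1753 in Def6-/- cells, from 4105 to 6625 reads. All day 12 libraries thus lay far above all day 0 libraries, while the genotypes overlapped at each day. The group means were 60.0 ± 4.96 (SD, n = 2) and 1857 ± 63.3 in WT, a ratio of 30.9, and 46.7 ± 19.2 and 1832 ± 113 in Def6-/- cells, a ratio of 39.2. The log2 fold change was 4.93 (SE 0.26, adjusted p = 3.37e-05) in WT and 5.32 (SE 0.26, adjusted p = 1.92e-05) in Def6-/- cells. It was called in each of the 8 fits that left out 1 library, with values of 4.85 to 5.02 in WT and 4.90 to 5.75 in Def6-/- cells. Cxcl12 alone made up 25.7% to 43.7% of the summed level of the 10 members at day 0 and 89.3% to 91.1% at day 12.

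Cx3cl1, the membrane-bound ligand of CX3CR1, had 90 to 146 reads per library at day 0 and 233 to 387 at day 12. It stood at 49.7 and 31.8 in WT and 54.9 and 38.5 in Def6-/- cells at day 0, and at 111 and 103 in WT and 95.7 and 101 in Def6-/- cells at day 12. The days did not overlap in either genotype. On the log2 scale it rose by 1.40 (SE 0.26, adjusted p = 0.00608) in WT and by 1.08 (SE 0.26, adjusted p = 0.0211) in Def6-/- cells. Without WT day 12 replicate 1 the adjusted p in WT was 0.0680. In Def6-/- cells the call held in 3 of the 8 fits without 1 library, those without WT day 0 replicate 1, WT day 0 replicate 2 or Def6-/- day 0 replicate 1, and the largest adjusted p was 0.156, without Def6-/- day 0 replicate 2.

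Ccl9, a CC ligand of myeloid cells and osteoclast precursors, stood at 25.7 and 8.83 in WT day 0 (65 and 25 reads), at 9.78 and 10.2 in Def6-/- day 0, at 68.0 and 39.8 in WT day 12 and at 57.5 and 55.9 in Def6-/- day 12. The day 12 libraries lay above the day 0 libraries in both genotypes, and WT day 0 replicate 1 lay above the other day 0 libraries. Ccl9 rose by 1.71 (SE 0.44, adjusted p = 0.0274) in WT cells and by 2.39 (SE 0.44, adjusted p = 0.00619) in Def6-/- cells. The call in WT held in 2 of the 8 fits without 1 library (those without a WT day 0 replicate), with adjusted p of 0.0502 to 0.208 in the others, the largest without WT day 12 replicate 1. In Def6-/- cells it held in 5 of 8, and in the others, without Def6-/- day 0 replicate 1 or either Def6-/- day 12 replicate, the adjusted p was 0.0519 to 0.0547.

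Cxcl10, the interferon-inducible ligand of CXCR3, was a gene of few reads. It had 2 and 1 reads in WT day 0, 1 and 1 in Def6-/- day 0, 29 and 6 in WT day 12 and 4 and 5 in Def6-/- day 12. These are 0.79 and 0.35, 0.38 and 0.34, 8.32 and 2.51, and 1.64 and 2.13 normalised CPM. Day 12 lay above day 0 in both genotypes, and 29 of the 35 reads of WT day 12 came from replicate 1. The ratio of pooled reads, day 12 to day 0, was 10.7 in WT (95% exact interval 3.36 to 54.2, from 35 against 3 reads) and 5.27 in Def6-/- cells (1.09 to 50.1, from 9 against 2 reads), where the intervals cover counting error only. The log2 fold change was 1.88 (SE 0.50, adjusted p = 0.0309) in WT and 1.08 (SE 0.50, adjusted p = 0.184) in Def6-/- cells. The WT call held in 3 of 7 fits without 1 library, with adjusted p of 0.0523 to 0.0576 without any 1 of the 4 Def6-/- libraries. Without WT day 12 replicate 1 Cxcl10 fell below the filter and was not tested.

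Ccl8, a monocyte-attracting ligand, was not seen in WT day 0 (0 and 0 reads), had 1 and 0 reads in Def6-/- day 0, 9 and 9 in WT day 12 and 4 and 1 in Def6-/- day 12. It was below the filter in all groups. Against the limit of 3 reads that a count of 0 allows over the group, its level in WT cells was at least 5.48-fold higher on day 12 than before induction, with the 18 reads of day 12 taken as counted. The exact 95% lower limit of the ratio, which covers counting error in both groups, was 4.02. In Def6-/- cells the ratio of pooled reads was 5.85 (95% exact interval 0.655 to 277, from 5 against 1 reads), so that a difference was not detectable at this depth. With no filter on low genes, limma called Ccl8 higher at day 12 in WT cells (log2 fold change 2.05, adjusted p = 0.00618) and not in Def6-/- cells (0.73, adjusted p = 0.236).

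Ccl2 and Ccl7, which draw monocytes and lie next to each other on chromosome 11, did not pass the test over time. Ccl2 stood at 22.9 and 9.89 in WT day 0, 9.41 and 8.17 in Def6-/- day 0, 11.5 and 14.7 in WT day 12 and 8.62 and 9.39 in Def6-/- day 12. Ccl7 stood at 25.3 and 9.89, 13.2 and 10.9, 10.9 and 10.1, and 7.80 and 5.12 in the same order. For both genes WT day 0 replicate 1 was the highest of the 8 libraries, and the days overlapped in WT cells. The log2 difference of Ccl2 was -0.21 (95% interval -1.06 to 0.65) in WT and 0.03 (-0.82 to 0.89) in Def6-/- cells, and that of Ccl7 was -0.56 (-1.50 to 0.38) and -0.82 (-1.77 to 0.12). The value of Ccl7 in Def6-/- cells was called lower when either WT day 0 library was left out (adjusted p = 0.0450 without replicate 1 and 0.0397 without replicate 2). In WT cells it was called lower without replicate 2 of day 0 (-1.19, adjusted p = 0.0144), where replicate 1 alone stood for the group, and its log2 difference was 0.08 without replicate 1.

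Ccl5, a CC ligand that T cells and interferon-treated cells make, had 1 to 7 reads per library at day 0 and 4 to 20 at day 12. The log2 difference was 0.40 (95% interval -0.71 to 1.51) in WT and 1.22 (0.11 to 2.33, adjusted p = 0.133) in Def6-/- cells, and 20 of its 24 reads in WT day 12 came from replicate 1. The neutrophil-attracting ligands showed no called change. Cxcl5 stood at 7.42 to 8.90 in the 4 WT libraries, at 5.64 and 17.7 in Def6-/- day 0 and at 10.7 and 12.4 in Def6-/- day 12, with log2 differences over time of 0.12 (-0.88 to 1.13) in WT and 0.17 (-0.84 to 1.17) in Def6-/- cells. Cxcl1 had 0 to 9 reads per library, and its pooled reads gave a ratio of day 12 to day 0 of 0.761 in WT (95% exact interval 0.184 to 2.99, from 5 against 6 reads) and 0.0976 in Def6-/- cells (0.00228 to 0.66, from 1 against 12 reads). In Def6-/- cells 9 of the 12 reads at day 0 were in replicate 2, and limma with no filter on low genes did not call Cxcl1 (adjusted p = 0.160).

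**Figure D2:**
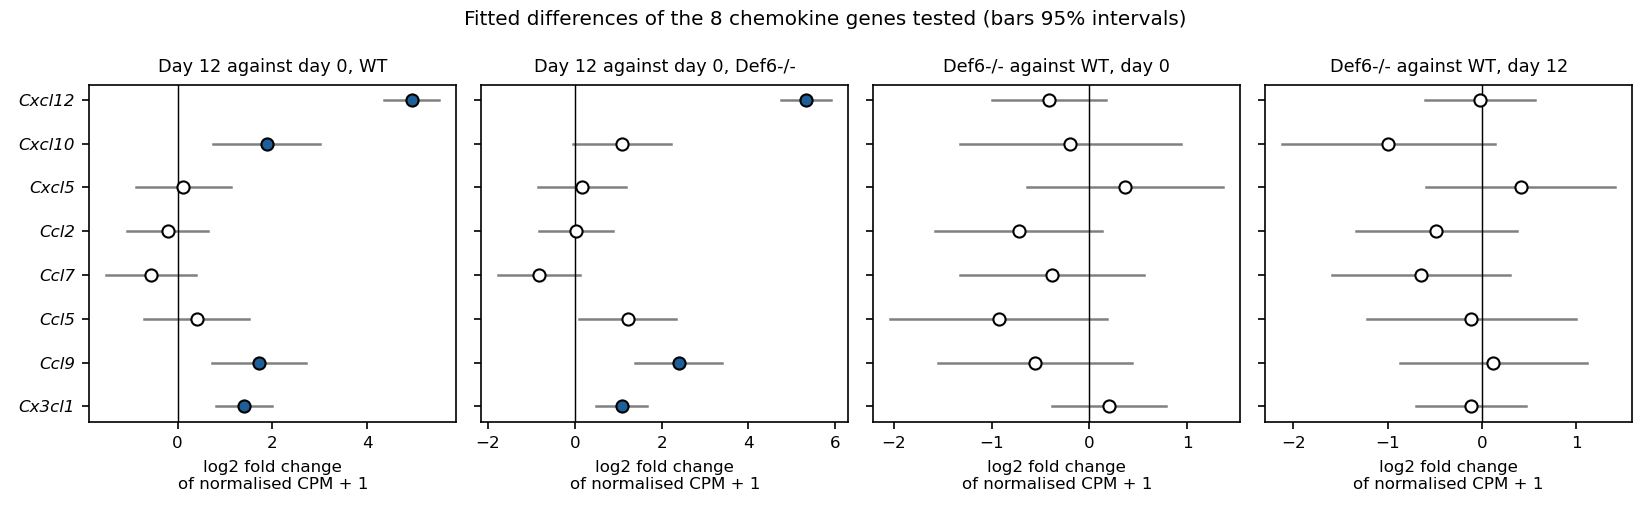
Log2 fold change of normalised CPM + 1 (horizontal axes) of the 8 tested chemokine genes in 4 comparisons, with 95% intervals from limma as bars and filled points for calls. Filled points occur in the comparisons of day 12 with day 0 alone, at 4.93 and 5.32 for Cxcl12, and all intervals of the comparisons of Def6-/- with WT cross 0.

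The comparison of Def6-/- with WT cells at each day asks whether loss of Def6 alters these genes. By the criterion of the study, which is over 1.2-fold at a p under 0.05 without adjustment, none of the 8 tested members differed between genotypes at day 12 or at day 0, and none had a genotype effect that changed with the day (limma). This criterion called 1.4% of all tested genes at day 12, 2.3% at day 0 and 1.12% for the interaction of genotype and day, and 0 of the members had an unadjusted p under 0.05 in any of the 3. The edgeR quasi-likelihood test on recovered reads called 1 member, Cxcl10, at day 12 and 0 in the others, and DESeq2 called 0 in all 3. Cxcl10 and Ccl5 entered these tests only through WT day 12, the group in which they were highest. The median log2 difference of the 8 tested members was -0.11 at day 12 and -0.40 at day 0, beside -0.001 and -0.02 over all tested genes.

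At day 12, Cxcl12 differed by -0.02 (95% interval -0.60 to 0.56) and Cx3cl1 by -0.12 (-0.70 to 0.47) on the log2 scale. Ccl9 differed by 0.12 (-0.87 to 1.12), Ccl5 by -0.11 (-1.22 to 0.9996) and Cxcl5 by 0.41 (-0.60 to 1.41). The intervals leave room for differences of 1.5-fold in Cxcl12 and of more in the other genes, so that these values do not show equal levels. Ccl2 (-0.48, -1.34 to 0.37) and Ccl7 (-0.64, -1.59 to 0.30) were lower in both Def6-/- libraries than in both WT libraries, without passing the criterion. Ccl7 passed it when a WT day 0 library was left out (log2 -0.64 without either one, adjusted p = 1), which alters the shared estimate of spread and not the libraries compared.

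Cxcl10 had the lowest fitted difference at day 12, -0.99 (95% interval -2.12 to 0.14, unadjusted p = 0.0779, adjusted p = 1). It entered the test only through WT day 12, the group in which it was highest, so its difference is given as a description. Both Def6-/- libraries (1.64 and 2.13 normalised CPM) lay below both WT libraries (8.32 and 2.51), by little for WT replicate 2. From pooled reads the ratio of Def6-/- to WT was 0.316 (95% exact interval 0.134 to 0.671, from 9 against 35 reads), an interval that ignores the spread between replicates. The edgeR quasi-likelihood test gave a log2 difference of -1.57 (unadjusted p = 0.0396, adjusted p = 1) and DESeq2 one of -1.55 (unadjusted p = 0.141). Without WT day 12 replicate 2, limma gave -1.70 and the criterion was passed. Ccl8 was at 5 reads in Def6-/- and 18 in WT at day 12, a ratio of 0.341 (0.0991 to 0.954), and with no filter on low genes it passed the criterion (log2 -1.09, unadjusted p = 0.0127, adjusted p = 1). Cxcl1 was at 1 and 5 reads, a ratio of 0.246 (0.0052 to 2.20), and a difference was not detectable at this depth.

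At day 0, the log2 differences ranged from -0.93 (Ccl5, 95% interval -2.04 to 0.18, from 4 against 12 reads) to 0.37 (Cxcl5, -0.64 to 1.37). Ccl2 was lower in both Def6-/- libraries than in both WT libraries (-0.72, -1.58 to 0.13), and the genotypes overlapped for Ccl7 (-0.38) and Ccl9 (-0.56). These 3 values rest on WT day 0 replicate 1. Without it the log2 differences were -0.15, 0.26 and 0.16, and with it as the only WT day 0 library they were -1.29, -1.02 and -1.28. In the latter fit far more of all tested genes passed the criterion at day 0 than with all libraries. Without WT day 0 replicate 1 Cx3cl1 passed the criterion (0.52). Cxcl12 differed by -0.41 (-0.999 to 0.17), by 0.01 without Def6-/- day 0 replicate 1 and by -0.84, past the criterion, without replicate 2. Cxcl5 passed it without Def6-/- day 0 replicate 1 (1.11), where replicate 2, the library with 52 reads, stood alone. Ccl5 passed it without WT day 12 replicate 2 (-0.93) and when the day 0 libraries alone were fitted.

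The interaction of genotype and day was between -0.80 (Cxcl10, 95% interval -2.39 to 0.80) and 0.82 (Ccl5, -0.75 to 2.39) for the 8 tested members, with an adjusted p of 0.9998 for each. Cxcl10 thus passed the test over time in WT and not in Def6-/- cells, but the difference between the 2 changes did not pass. With WT day 0 replicate 1 as the only library of its group the interaction of Ccl9 was 1.40, and it was -0.04 without that library. In the first of these fits far more of all tested genes passed for the interaction than with all libraries.

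**Figure D3:**
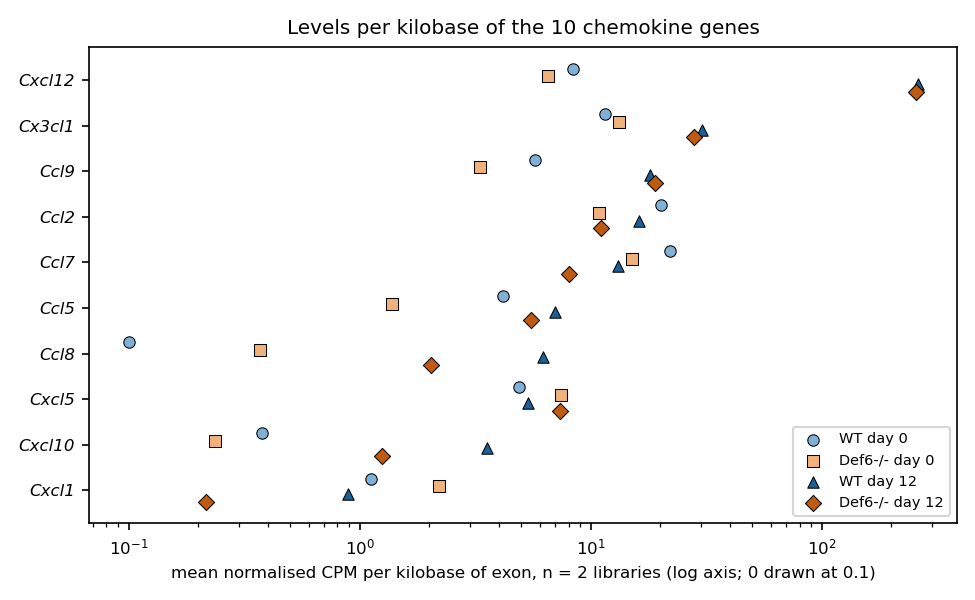
Mean normalised CPM per kilobase of exon (horizontal log axis, n = 2 libraries, 0 drawn at 0.1) of the 10 chemokine genes, with 1 symbol per group and genes in the order of WT day 12. Cxcl12 moves from the middle of the members at day 0 (8.38 in WT) to the top at day 12 (259 in WT), while Ccl2 and Ccl7 stay between 8.07 and 21.9 in all groups.

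To compare levels between genes, normalised CPM was divided by the kilobases of exon in protein-coding transcripts. At day 0 in WT cells the highest member was Ccl7 (21.9 ± 13.6 normalised CPM per kilobase, SD, n = 2), followed by Ccl2 (20.2 ± 11.3), Cx3cl1 (11.5 ± 3.59) and Cxcl12 (8.38 ± 0.69), and the libraries of Ccl7, Ccl2 and Cx3cl1 overlapped as neighbours. In Def6-/- cells the order was Ccl7 (15.0 ± 2.003), Cx3cl1 (13.2 ± 3.29), Ccl2 (10.8 ± 1.07), Cxcl5 (7.41 ± 5.42) and Cxcl12 (6.52 ± 2.68), and each neighbour in this row overlapped the next. At day 12 the first places were taken by Cxcl12 (259 ± 8.84 in WT and 256 ± 15.8 in Def6-/-), Cx3cl1 (30.2 ± 1.70 and 27.9 ± 1.103) and Ccl9 (17.9 ± 6.64 and 18.9 ± 0.37) in both genotypes. In both genotypes Cxcl12 and Cx3cl1 stood apart from the next gene in every library. In WT cells Ccl9 overlapped Ccl2, and Ccl5, Ccl8, Cxcl5 and Cxcl10 overlapped as neighbours. Cxcl12 ranked 127 of 11614 tested genes with a length in WT day 12 and 5793 in WT day 0. Its exon length of 7160 bases joins all coding transcripts, long forms included, and the level per kilobase is lower than it would be for a short form.

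Among the other chemokine ligands, 8 of 28 were tested. In WT cells Ccl3, Ccl6, Cxcl16 and Ccl4 were higher and Ppbp lower at day 12, and in Def6-/- cells Ccl3, Ccl6 and Cxcl16 were higher and Ppbp lower, with medians of the 8 of 1.35 and 0.91. Ccl6, a myeloid CC ligand, had 1 to 7 reads at day 0 and 47 to 85 at day 12 and rose by 3.12 in WT and 3.52 in Def6-/- cells (adjusted p = 0.00125 and 0.000738). Ccl3, a macrophage product, had 0 or 1 reads at day 0 and 15 to 47 at day 12 (log2 fold change 3.36 and 3.07, adjusted p = 0.00103 and 0.00157). Cxcl16, the other membrane-bound chemokine, rose from 4.51 to 7.50 normalised CPM over the day 0 libraries to 17.9 to 26.98 at day 12 (1.77 and 1.73, adjusted p = 0.00184 and 0.00212). Between genotypes at day 12, 1 of the 8 passed the criterion, Ccl4 (-1.09, unadjusted p = 0.0328, adjusted p = 1), with 15 and 8 reads in WT and 3 and 3 in Def6-/- cells. Ccl4 entered the test only through WT day 12, the group in which it was highest, so its difference is given as a description. Likewise Ccl3 and Ccl6 entered only through the day 12 groups. Ppbp entered only through Def6-/- day 0 and Ccl25 only through WT day 0, the groups in which they were highest. Of the 5 genes not admitted through day 12 groups alone, 1 was called higher (Cxcl16) and 1 lower (Ppbp) over time in each genotype. Ccl4 did not pass without either Def6-/- day 12 replicate (unadjusted p = 0.0812 and 0.0736) and was not tested without WT day 12 replicate 1. Cxcl14 (0.71, unadjusted p = 0.0719) and Cxcl16 (-0.49, unadjusted p = 0.0829) did not pass with all 8 libraries. At day 0 none of the 8 passed, with Ccl25 (-1.07, unadjusted p = 0.0562), Cxcl16 (-0.45) and Ccl6 (-0.60) first by p. The result that none passed at day 0 did not hold without WT day 0 replicate 2 or without either Def6-/- day 0 replicate. In the first of these fits far more of all tested genes passed at day 0 than with all libraries.

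The signalling receptors of the members were scarce in these cultures. Of 18 signalling receptors, 5 had no read in any library, 12 had at most 3 in every library, and 2 (Cxcr4 and Cx3cr1) were tested. Cxcr2, which reads Cxcl1 and Cxcl5, had no reads, Cxcr3, the receptor of Cxcl10, had 0 to 2, and Ccr2, the receptor of Ccl2 and Ccl7, had 0 or 1. Ccr1 had 2 to 7 reads per library. Cxcr4, the receptor of Cxcl12, had 3 to 13 reads, with log2 differences over time of -0.12 in WT and -0.05 in Def6-/- cells (adjusted p = 0.885 and 0.961) and of 0.58 at day 0 and 0.65 at day 12 between genotypes (unadjusted p = 0.238 and 0.189). Cx3cr1 had 1 to 19 reads and passed no test (log2 -0.79 and -0.98 over time, 0.15 and -0.04 between genotypes).

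Of the 5 atypical receptors, 2 were tested. Ackr3, which takes up Cxcl12, stood at 14.6 and 14.1 in WT day 0, 17.7 and 17.03 in Def6-/- day 0, 21.0 and 12.6 in WT day 12 and 27.1 and 27.3 in Def6-/- day 12. Both Def6-/- libraries lay above both WT libraries at each day. At day 12 Ackr3 passed the criterion of the study (log2 0.71, unadjusted p = 0.0305, adjusted p = 1), and at day 0 it did not (0.26, unadjusted p = 0.377). The call at day 12 was lost without WT day 12 replicate 2 (0.36, unadjusted p = 0.262) and without either Def6-/- day 12 replicate (unadjusted p = 0.0977 and 0.102). Ackr4, which removes CC ligands other than the members, rose from 4.77 to 7.15 normalised CPM over the day 0 libraries to 30.7 to 47.8 at day 12 (log2 fold change 2.29 in WT and 2.72 in Def6-/-, adjusted p = 0.000839 and 0.000364). Its difference between genotypes was -0.10 at day 0 and 0.33 at day 12, neither past the criterion.

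Of 5 tested proteases that cleave or shed chemokines, Mmp14 rose over time in both genotypes (log2 0.76 and 0.62, adjusted p = 0.0156 and 0.0379), Mmp2 in WT cells (0.64, adjusted p = 0.0456) and Adam17, a sheddase of fractalkine, in Def6-/- cells (0.58, adjusted p = 0.0496). Adam10 and Mmp9 were not called over time in either genotype. Mmp2 in Def6-/- cells (0.56, adjusted p = 0.0773) and Adam17 in WT cells (0.47, adjusted p = 0.0935) did not pass. Without 1 library these calls often went, as Mmp14 was called in 6 of 8 such fits in WT and in 2 of 8 in Def6-/- cells, and Mmp2 and Adam17 in 2 of 8 each. No protease passed the criterion between genotypes. Of 18 tested NF-κB response genes, 3 were higher over time in both genotypes (Icam1 at 2.07 and 1.99, Tnfaip2 at 1.69 and 1.22, and Nfkbie), while Csf1, Lif and Ptgs2 were lower in both and Nfkbiz was lower in Def6-/- cells. Their median was 0.28 in WT and 0.16 in Def6-/- cells, and none of the 18 passed the criterion between genotypes at either day, with medians of -0.16 at day 12 and -0.07 at day 0. The result that none of the 18 passed did not hold at day 0 or day 12 when either WT day 0 replicate was left out. Without replicate 2, far more of all tested genes passed at day 0 than with all libraries. The 6 called over time in WT cells became 2 without either WT day 12 replicate, and the 7 in Def6-/- cells became 2 without Def6-/- day 12 replicate 2 and 3 without any other Def6-/- library.

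Of 19 tested interferon stimulated genes other than Cxcl10, in WT cells all 19 were higher at day 12, in Def6-/- cells 15 were, and the median log2 fold changes were 2.81 and 2.20. Ifit3 (4.31 and 3.43) and Gbp3 (3.78 and 2.48) were among the first by p in both genotypes. At day 12, 11 of the 19 passed the criterion of the study as lower in Def6-/- cells and 0 as higher, with a median of -1.09, and Zbp1 (-1.41), Gbp3 (-1.44) and Rtp4 (-1.34) had the smallest p (adjusted p = 1 for each). Zbp1 and Oas1a entered the test only through WT day 12, where they were highest (Zbp1 had 25 and 23 reads there and 6 and 6 in Def6-/- day 12), and of the 17 others 9 were called lower in Def6-/- cells. Over time, 7 of the 19 entered only through day 12 groups, and of the 12 others 12 were called higher in WT and 10 in Def6-/- cells. At day 0, 3 passed it as lower, Isg15 (-1.65), Irf7 (-1.30) and Bst2 (-1.07), and the median was -0.21. The count of 11 at day 12 was 3 without WT day 12 replicate 2, 6 without Def6-/- day 12 replicate 1 and 3 without Def6-/- day 12 replicate 2. The count of 3 at day 0 was 0 without Def6-/- day 0 replicate 1, 5 without WT day 0 replicate 1 and 7 without Def6-/- day 0 replicate 2. Over time, the 19 in WT cells became 11 without WT day 12 replicate 2, and the 15 in Def6-/- cells became 7 and 8 without Def6-/- day 12 replicates 1 and 2 and 8 without Def6-/- day 0 replicate 1. Ifit3 has a near-identical copy, Ifit3b, and reads of the pair may have been split. The fitted difference of Cxcl10 at day 12 was -0.99, beside the median of -1.09 for the list. Cxcl10 entered the test only through WT day 12, where it was highest, and its few reads make its fitted difference come out smaller. The values stand side by side as a description only. The list was written with earlier results of these data known and gives no independent evidence of its direction.

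**Figure D4:**
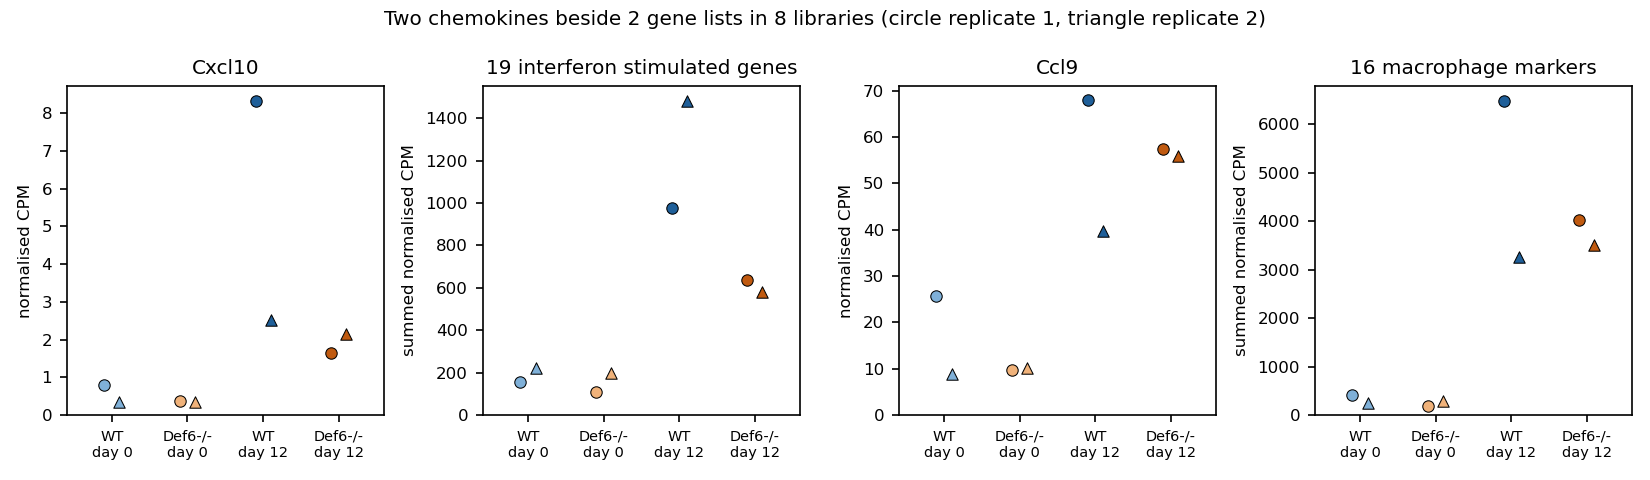
Normalised CPM of Cxcl10 and Ccl9 and summed normalised CPM of 19 interferon stimulated genes and 16 macrophage markers (vertical axes, linear from 0) in 8 libraries by genotype and day, circles for replicate 1 and triangles for replicate 2. WT day 12 replicate 1 is the highest library for Cxcl10 (8.32), Ccl9 (68.0) and the macrophage markers (6476), and WT day 12 replicate 2 is the highest for the interferon stimulated genes (1483).

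Library by library, the 2 WT replicates at day 12 ordered differently for Cxcl10 and for the list. The summed level of the 19 interferon stimulated genes was 978 and 1483 in WT day 12 replicates 1 and 2 and 638 and 579 in Def6-/- day 12, whereas Cxcl10 was at 8.32 and 2.51 in WT. The 16 macrophage markers with whole reads summed to 420 and 245 in WT day 0, 185 and 298 in Def6-/- day 0, 6476 and 3261 in WT day 12 and 4030 and 3507 in Def6-/- day 12. All 16 were called higher at day 12 in WT cells and 15 in Def6-/- cells, beside 12.7% and 12% of all tested genes. Aif1 and Cd52 entered the test only through day 12 groups, and of the others 14 were called higher in each genotype. None of the 16 passed the criterion between genotypes, and the median difference between genotypes was -0.33 at day 12. Some of these 16 passed between genotypes at day 0 without WT day 0 replicate 2, where far more of all tested genes passed than with all libraries. The result of none also did not hold at day 0 without Def6-/- day 0 replicate 2. Nor did it hold at day 12 without WT day 12 replicate 2. The other 4 markers of this list (Ptprc, Csf1r, Adgre1 and Itgam) held values that are not whole reads and were left out. Their group means in WT cells, day 0 then day 12, were 3.78 and 8.89, 25.5 and 16.2, 1.33 and 1.97, and 7.12 and 6.73. In Def6-/- cells they were 3.57 and 4.55, 24.0 and 12.7, 1.14 and 1.48, and 5.04 and 6.72, in the same order. The Csf1r means were lower at day 12 in both genotypes, and the others changed less than the sum of the 16. The values of Csf1r and Ptprc that are not whole reads all lie in day 12 libraries. No direction over time is therefore read from either gene. WT day 12 replicate 1 had the highest level of Cxcl10, Ccl5 and Ccl9, and it also had the highest macrophage sum, the part of which in these 3 genes was not tested. Ccl8 was higher in replicate 2 (3.77 against 2.58). The rises of Ccl9, Ccl3 and Ccl6 go with that of the 16 macrophage markers by day, and the part of macrophages in them was not tested.

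The neutrophil markers summed to at most 1.64 normalised CPM per library, with S100a9, Mpo, Elane and Retnlg at 0 in all libraries, and the T and NK cell markers to at most 1.68, with Cd3e, Cd3d, Cd3g, Nkg7 and Gzma at 0. The endothelial markers summed to 7.77 to 12.9 at day 0 and 16.9 to 20.52 at day 12, with Emcn and Tie1 at 0 and Tek called higher at day 12 in WT cells (log2 2.004, adjusted p = 0.0303). Tek entered the test only through the day 12 groups. The call of Tek was lost in 5 of 8 fits without 1 library (adjusted p of 0.0581 to 0.166), those without WT day 0 replicate 1 or any 1 of the 4 day 12 libraries, and by edgeR. Of the 12 osteoblast markers, 6 were called higher at day 12 in WT and 7 in Def6-/- cells. Of the 12, 4 entered the test only through day 12 groups, and of the 8 others 3 were called higher in each genotype. Bglap passed the criterion as higher in Def6-/- cells at day 12 (1.13, unadjusted p = 0.00935, limma). It did not pass without WT day 12 replicate 1 or Def6-/- day 12 replicate 1 (log2 1.02 and 0.93). The number of osteoblast markers that passed at day 12, 1 of 12, was 6 without either WT day 0 replicate, 3 without Def6-/- day 12 replicate 2, 0 without Def6-/- day 12 replicate 1, 7 with the day 12 libraries alone, 3 by edgeR and 2 by DESeq2. At day 0 it was 0, and it was higher without either WT day 0 replicate. Without replicate 2 the number called over time in WT cells was also higher. In that fit far more of all tested genes passed at day 0 and over time in WT cells than with all libraries. Bglap has near-identical neighbours, such as Bglap2, with which it may share reads.

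The genes whose pattern over the 8 libraries was most like that of Cxcl12 were Cpz, Cdkn1c and Matn4 (Pearson r of log2(normalised CPM + 1) of 0.999, 0.999 and 0.998). For Cxcl10 they were Irf5, Madd and Gpr108 (0.974, 0.972 and 0.967), which like Cxcl10 had their most reads in WT day 12 replicate 1. For Ccl2 they were Churc1, 3110082I17Rik and Skp1a (0.985, 0.979 and 0.978), which like Ccl2 had their most reads in WT day 0 replicate 1. These correlations are descriptions over 8 libraries that share 2 days and 2 genotypes. Among the members, the highest correlations were those between Cxcl12, Ccl9 and Cx3cl1 (r of 0.919 to 0.927), followed by those of Cxcl10 with these 3 (0.825 to 0.850) and of Ccl8 with Cx3cl1 and Cxcl12 (0.828 and 0.806). Ccl2 and Ccl7 correlated at 0.727.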

How the data were processed

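The libraries were made from poly-A RNA and sequenced on an Illumina instrument. Per the labels the authors used fastp, HISAT2, HTSeq and edgeR on mm10, with versions and strand setting not given in the sources used here, and deposited CPM values relative to all reads, reads outside genes included. Whole reads came back for 99.957% of 114821 positive values (within 0.02 reads), and the 49 others lie in 9 marker genes and in no member. Because the files hold CPM, the main test was limma 3.58.1 with a variance trend, run on log2(normalised CPM + 1) for 4 group means over all 8 libraries. CPM was rescaled to reads on genes with TMM factors, and genes whose deposited CPM averaged 1 or more in a group were kept (12348). Day comparisons were called at an adjusted p under 0.05, and genotype comparisons by the criterion of the study. edgeR 4.0.16 and DESeq2 1.42.0 on recovered reads (R 4.3.3), other scaling, pseudocount and filter, the replicate block, fits of 2 groups and fits without 1 library were the alternatives. The limma fit was tested on simulated data. Without 1 library a group has a single sample, which is taken to vary like the others. Ratios of pooled reads have exact binomial intervals, given where a group had under 20 reads, and cover counting error only. The members, lists and tests were chosen with earlier results of these data known. All 10 members are reported, with the 3 genes of smallest p per list and comparison, the receptors of the members, and the 3 genes most like Cxcl12, Cxcl10 and Ccl2. Of 10 members, 6 matched the RefSeq promoter table and all 10 the GENCODE annotation.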

Additional observations from a re-analysis of the deposited data

Results flagged for a closer look

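None of the 8 tested chemokine genes passed the criterion of the study for a change over time that differed between genotypes. In the lists set beside them, 5 genes passed this criterion for the interaction of genotype and day (unadjusted p under 0.05 and over 1.2-fold, limma, met by 1.12% of all tested genes), none at an adjusted p under 0.05 (0.9998 for each). The interferon stimulated genes Zbp1 (-1.38), Rtp4 (-1.35) and Gbp3 (-1.30) had smaller fitted changes over time in Def6-/- than in WT cells on the log2 scale, and Zbp1 entered the test only through WT day 12, where it was highest. The osteoblast genes Alpl (0.80) and Bglap (1.13) had larger ones. Bglap had 0 reads in all day 0 libraries, so its fitted value depends on the pseudocount. The count of interferon stimulated genes that passed, 3, was lower without WT day 12 replicate 2 or without Def6-/- day 12 replicate 2. It was higher without WT day 0 replicate 2, and 0 by edgeR and by DESeq2. Without WT day 0 replicate 2, far more of all tested genes passed for the interaction than with all libraries. The count of osteoblast genes, 2, was 4 and 5 without WT day 0 replicates 1 and 2, 1 without Def6-/- day 0 replicate 2 or WT day 12 replicate 1, and 0 without Def6-/- day 0 replicate 1, WT day 12 replicate 2 or Def6-/- day 12 replicate 1 and by DESeq2.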

How the results depend on the processing

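Cxcl12 was called higher at day 12 in both genotypes under each alternative run. With 4 members called over time in WT cells, fitting the WT libraries alone gave 2 (Cxcl12 and Cx3cl1), and fits without 1 library gave 1 to 5, the 1 without WT day 12 replicate 1. With 3 called in Def6-/- cells, fits without 1 library gave 1 to 4, the 1 without either Def6-/- day 12 replicate. Against 0 between genotypes at day 12, no filter on low genes gave 1 (Ccl8), edgeR 1 (Cxcl10) and fits without 1 library 0 to 1. Against 0 at day 0, the day 0 libraries alone gave 1 (Ccl5), and members passed in some fits without 1 library. Ccl2, Ccl7 and Ccl9 passed with WT day 0 replicate 1 alone in its group. That fit also passed far more of all tested genes at day 0 than the fit of all libraries. It therefore singles out no member. Against 0 for the interaction, no filter on low genes gave 1 (Ccl8) and fits without 1 library 0 to 1 (Cx3cl1, Ccl9, Cxcl12 or Cxcl10).

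Signs turned where the log2 difference was small or 1 library decided it. With no TMM factors Cxcl12 was at 0.053 between genotypes at day 12, Ccl2 at -0.036 over time in Def6-/- cells and Cxcl5 at -0.045 for the interaction. Cxcl5 over time in Def6-/- cells was -0.033 by edgeR and -0.038 by DESeq2, and its interaction -0.18 by both. Over the fits without 1 library, the differences at day 12 were -0.084 to 0.041 for Cxcl12 and -0.26 to 0.50 for Ccl9. At day 0 they were -0.84 to 0.0055 for Cxcl12, -0.40 to 0.0062 for Cxcl10, -0.38 to 1.11 for Cxcl5, -1.02 to 0.26 for Ccl7, -1.28 to 0.16 for Ccl9 and -0.11 to 0.52 for Cx3cl1. Over time they were -0.77 to 0.36 for Ccl2 and -1.19 to 0.078 for Ccl7 in WT, and -0.58 to 0.91 for Cxcl5 and -0.056 to 0.13 for Ccl2 in Def6-/- cells. The interactions were -0.026 to 0.82 for Cxcl12, -0.70 to 0.79 for Cxcl5, -0.33 to 0.81 for Ccl2, -0.90 to 0.37 for Ccl7 and -0.044 to 1.40 for Ccl9. Beyond the libraries left out, the cause was not tested. Of 582 member values under alternatives, 511 kept direction and side of the threshold.

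The labels do not say that replicate numbers pair libraries, and same-numbered libraries correlated at 0.00 to 0.33 between groups. With the replicate block 4 and 3 members were called over time and 0 in the other comparisons, as without it. The block moved the calls over all genes at day 12 from 173 to 202, and at day 0 from 284 to 360.

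Over all tested genes, the share of higher among called genes at day 0 moved with the scaling: 122 higher and 162 lower with TMM factors, 138 and 53 without. At 12 days the counts were 100 and 73 with TMM factors and 119 and 51 without. Depth limits Cxcl10, Cxcl1, Ccl8 and Ccl5, where a group held fewer than 20 reads.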
